A study of Mus musculus with 12 samples.

Results

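The clustered replication histone genes are the short genes, packed into tight genomic clusters, that supply most of the histone protein put on newly copied DNA. Their members were taken by name, as every symbol that begins with Hist1h, Hist2h, Hist3h or Hist4h and goes on with the class 1, 2a, 2b, 3 or 4. The rule found 67 of the 23284 symbols in the table, in 73 rows, since some symbols were listed more than once and their values were summed. The H1 class held 6 members, H2A 18, H2B 18, H3 12 and H4 13. The Hist1 cluster on mouse chromosome 13 held 53 of the 67, the Hist2 cluster on chromosome 3 held 10, the Hist3 cluster on chromosome 11 held 3, and Hist4h4 on chromosome 6 stood alone. Hist3h2bb-ps is annotated as a processed pseudogene and was kept because the rule takes it.

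RNA had been sequenced from sorted mouse muscle progenitors in 12 libraries, 3 in each of 4 groups. Every library carries the strain label 129P2/OlaHsd and was sorted as CD31- CD45- a7-integrin+ VCAM+. For the transplant group, cells sorted in this way from teratomas were placed in tibialis anterior muscle, and the muscle was harvested and sorted 1 month later. Teratomas, tumours of mixed tissue formed by pluripotent stem cells, gave the teratoma group at an age of 3 weeks. The adult group came from the hindlimbs of 8-week-old males, and the embryo group from whole embryos at day E14.5. The labels give the sex of the adult animals but not of the other groups, and give neither the stem cell line nor the host animals. Each group's 3 libraries are described as biological replicates, with no word on whether animals were pooled.

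A cell makes most of its replication histones while it copies its DNA. Core histones H2A, H2B, H3 and H4 form the nucleosome, and linker histone H1 binds the DNA between nucleosomes. Unlike other messenger RNAs, those of replication histones usually carry no poly(A) tail and end in a conserved stem-loop, which the protein Slbp binds, while the nuclear protein Npat drives their transcription as cells enter S phase. Replacement variants such as H3f3a, H3f3b and H1f0 lie outside the clusters, have polyadenylated messages, and are made in resting cells as well. The libraries came from a total-RNA kit, which does not select for a poly(A) tail.

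The stem-loop was sought in the GENCODE M21 transcripts, on the same mouse build (GRCm38, mm10) that the submitters name, because it sets this family apart from other messages. A match of the 16-base histone stem-loop was present in 46 of the 67 members, against 68 of all 21877 protein-coding genes (0.311%), the 46 included. Of the 21 members without a match, 15 have a model that ends within 16 bases of the stop codon and so could not hold one. All 34 matches in H1, H2A, H2B and H3 members had a stem that opens with GGCTC. The 12 in H4 members opened with GGCCC in 10 and GGTCC in 2. The sequences below are those of members the results turn on, in the sense of the messenger RNA and written as DNA, with the 16-base stem-loop in capitals between 5 flanking bases on each side.
Hist1h1c (chr13:23738808-23740367, plus strand): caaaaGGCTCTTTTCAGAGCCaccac
Hist2h2ac (chr3:96220361-96220880, minus strand): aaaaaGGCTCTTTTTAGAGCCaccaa
Hist1h2bb (chr13:23746734-23747241, plus strand): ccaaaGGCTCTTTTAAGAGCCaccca
Hist1h3d (chr13:23575763-23577011, plus strand): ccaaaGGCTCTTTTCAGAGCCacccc
Hist1h4d (chr13:23581598-23582735, plus strand): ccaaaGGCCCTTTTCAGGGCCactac
Hist1h4b (chr13:23757013-23757409, plus strand): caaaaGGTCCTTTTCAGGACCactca
Hist2h4 (chr3:96261682-96263311, minus strand): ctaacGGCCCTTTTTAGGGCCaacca
The coordinates are those of the whole genes.

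Copies of a class resemble each other so closely that reads can be shared between them, which makes the value of a single gene less certain than the sum of its class. The median share of a member's 50-base stretches that also occur in another member was 1.1% in H1, 73.0% in H2A, 37.2% in H2B, 57.2% in H3 and 39.5% in H4. Hist1h1a, Hist1h1b, Hist2h2bb, Hist2h2be and Hist4h4 shared none, and Hist2h4 shared 1.01%. Hist1h1e overlaps the long model of Hist1h2be on the same strand, and Hist1h2be was listed at 0 FPKM in all 12 libraries. The classes were therefore summed, and single members are given beside the sums.

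The deposited values are FPKM, fragments scaled to gene length and to library total, for which the depth is unknown. Between 9495 and 12000 symbols reached 1 FPKM per library. Small and ribosomal RNA made up from 39.2% to 97.7% of a library's FPKM sum. The sorted genes Itga7 and Vcam1 were present throughout, at 34.9 to 55.5 and 68.7 to 91.6 FPKM in transplant, 40.2 to 48.2 and 66.7 to 120 FPKM in teratoma, 61.6 to 62.6 and 83.9 to 117 FPKM in adult, and 9.73 to 10.8 and 48.8 to 57.7 FPKM in embryo libraries. The 8 myogenic progenitor markers averaged at least 1 FPKM in every group. Their sum ran from 431 to 594 FPKM in transplant, 401 to 513 FPKM in teratoma, 1151 to 1326 FPKM in adult, and 142 to 163 FPKM in embryo libraries. All 8 were called higher by limma in transplant and in teratoma against embryo, and in adult against embryo 6 were higher and 1 lower. Of all tested genes 14.9%, 15.5% and 15.8% were called higher in these comparisons, in that order. In adult against embryo 36.9% of all tested genes were called lower. The part of these differences in marker level in the histone results was not tested. In bulk samples, fewer cells making histone messages and less histone message per cell cannot be told apart.

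All 5 histone classes stood in the same order, lowest in adult, then transplant, then teratoma, and highest in embryo libraries. The H1 sum was 49.7, 43.9 and 77.0 FPKM in transplant, 386, 297 and 361 FPKM in teratoma, 18.1, 18.6 and 13.3 FPKM in adult, and 832, 945 and 668 FPKM in embryo libraries. The H2A sum was 59.0, 87.6 and 95.9 FPKM in transplant, 466, 396 and 547 FPKM in teratoma, 9.96, 27.9 and 13.0 FPKM in adult, and 1091, 829 and 1037 FPKM in embryo libraries. No library of one group overlapped another group in either class. The H2B sum was 52.7, 80.6 and 90.8 FPKM in transplant, 451, 426 and 611 FPKM in teratoma, 26.4, 43.4 and 24.3 FPKM in adult, and 1101, 909 and 878 FPKM in embryo libraries. The H3 sum had the lowest mean of the 5 in every group, at 25.0, 19.5 and 31.4 FPKM in transplant, 149, 257 and 272 FPKM in teratoma, 11.7, 5.17 and 3.12 FPKM in adult, and 545, 500 and 500 FPKM in embryo libraries. The H4 sum was 139, 184 and 134 FPKM in transplant, 479, 485 and 553 FPKM in teratoma, 60.04, 69.0 and 82.3 FPKM in adult, and 1261, 620 and 929 FPKM in embryo libraries. In these 3 classes too the 4 groups kept apart. Of all tested genes, 32.2% lay wholly lower in transplant than in teratoma libraries, and 35.0% wholly higher in transplant than in adult. Such shares were 45.6% for teratoma above adult, 32.8% for transplant below embryo, 17.4% for teratoma below embryo and 40.1% for adult below embryo.

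**Figure D1:**
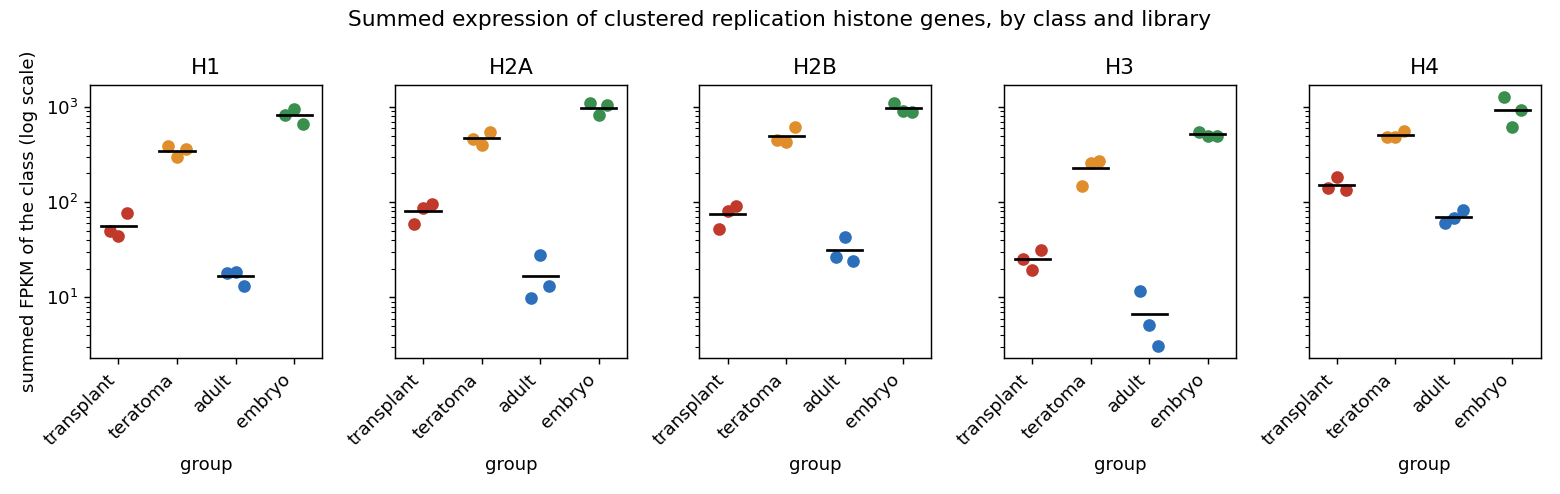
Summed FPKM of each histone class (log axis) in transplant, teratoma, adult and embryo libraries; points are libraries (n = 3 per group) and bars are group means. In every class the adult libraries lie lowest and the embryo libraries highest, with no overlap between any groups. Separation of groups was also common among all tested genes.

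Each of the 6 pairwise comparisons was tested for each class sum with limma on log2(FPKM + 1), fitted with all other genes of the table, with Benjamini-Hochberg adjustment over all features. All 30 tests passed an adjusted p of 0.05. The members together took 0.143% to 0.188% of the FPKM outside small and ribosomal RNA in transplant, 0.669% to 0.902% in teratoma, 0.0458% to 0.0584% in adult, and 1.39% to 1.88% in embryo libraries. Of the 67 members, 55 passed the filter of at least 1 FPKM in at least 3 libraries and entered the test of single genes. They had passed largely through the groups where they are high, so their counts are a description. The group means of 43 of the 55 ran in the order embryo, teratoma, transplant, adult, and in 9 more they differed from it in adult standing above transplant. Across the 12 libraries a member's correlation with the rest of its class had a median of 0.896, from -0.424 for Hist2h3c1 to 0.997 in the H1 class; the points share their libraries and the group differences.

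Cells recovered after transplantation held far less of all 5 classes than cells sorted from teratomas. Their mean was lower by 6.12 times for H1 (56.9 ± 17.7 FPKM in transplant and 348 ± 46.0 FPKM in teratoma, SD, n = 3 each), 5.81 times for H2A, 6.64 times for H2B, 8.93 times for H3 and 3.32 times for H4. On the log2 scale H1 changed by -2.63 ± 0.22 (SE, adjusted p = 2.1e-05, limma) and H3 by -3.09 ± 0.35 (adjusted p = 0.000157, limma). Changes were -2.54 ± 0.31 for H2A, -2.73 ± 0.25 for H2B and -1.74 ± 0.24 for H4, with limma adjusted p of 0.000239, 3.66e-05 and 0.00045. Among single members, 41 of 55 were called lower and 0 higher by limma, also 0 higher at an unadjusted p under 0.05, where 18.5% of all tested genes were called lower and 4.18% higher. The members' median log2 change was -2.47 and that of all tested genes -0.28. With class sums in place of members, 18.2% of features were called lower.

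The median of all tested genes depended on the scaling. With median-ratio scaling the median of all tested genes in the 6 comparisons, in the order transplant against teratoma, transplant against adult, teratoma against adult, transplant against embryo, teratoma against embryo and adult against embryo, was -0.03, 0.09, 0.13, 0.00, 0.01 and -0.04, and as deposited it was -0.28, 0.23, 0.50, -0.24, 0.01 and -0.42. The share of higher genes among all called genes moved likewise, to 43.2%, 51.8%, 53.1%, 51.3%, 59.6% and 49.9% with that scaling and 18.5%, 61.7%, 80.3%, 35.0%, 59.4% and 30.0% as deposited. The members' medians were -2.20, 0.48, 3.07, -3.26, -1.07 and -3.91 with that scaling and -2.47, 0.47, 3.21, -3.57, -1.08 and -4.26 as deposited. Every class sum kept its direction and call in all 6 comparisons under median-ratio scaling. In transplant against teratoma 37 members were called lower with that scaling, against 41 as deposited.

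Against adult muscle progenitors, transplant cells held more of every class, but by less. The mean was higher by 3.41 times for H1 (16.7 ± 2.92 FPKM in adult), 4.77 times for H2A (80.8 ± 19.4 FPKM in transplant and 17.0 ± 9.56 FPKM in adult), 2.38 times for H2B, 3.79 times for H3 and 2.16 times for H4. Log2 changes were 1.68 ± 0.22, 2.29 ± 0.31, 1.24 ± 0.25, 1.91 ± 0.35 and 1.10 ± 0.24 in the order H1, H2A, H2B, H3, H4, with limma adjusted p from 0.000107 for H1 to 0.00264 for H4. Of single members 13 of 55 members were called higher and 0 lower by limma (0 lower at an unadjusted p under 0.05), beside 27.3% of all tested genes called higher and 16.9% lower. The share of members called is near that background. With class sums in place of members, 27.4% of features were called higher. The members' median change was 0.47, beside 0.23 for all tested genes.

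The 13 were Hist1h1c, Hist1h1d, Hist1h1e, Hist1h2bb, Hist1h2bg, Hist1h3d, Hist1h4a, Hist1h4d, Hist2h2ab, Hist2h2ac, Hist2h2bb, Hist2h4 and Hist3h2a. Hist2h2ac and Hist1h1c had the largest changes among the members of their class. The changes of Hist2h2ab and Hist3h2a under the alternatives are not given here. Of the other 11, Hist1h2bg, Hist1h4a and Hist1h4d lost the call under median-ratio scaling, with limma adjusted p of 0.0696, 0.0617 and 0.0766. Over all alternatives their adjusted p ran from 0.00846 to 0.131, from 0.00189 to 0.130 and from 0.0037 to 0.113. The call of Hist1h2bg ended without any 1 of the transplant libraries or adult replicate 1 (adjusted p 0.0545 to 0.131). That of Hist1h4a ended without transplant replicate 1 or 2 or adult replicate 2 or 3 (adjusted p 0.0696 to 0.121), and that of Hist1h4d without transplant replicate 2 or 3 or adult replicate 1 (adjusted p 0.0684 to 0.113).

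In fold, teratoma cells differed less from embryo than from adult progenitors in every class. Against adult, their class means were higher by 20.9 times for H1, 27.7 for H2A, 15.8 for H2B, 33.9 for H3 and 7.18 for H4, with log2 changes from 2.83 ± 0.24 (H4) to 5.0 ± 0.35 (H3) and limma adjusted p of at most 4.59e-06. Of 55 members, 47 were called higher and 0 lower by limma (0 at an unadjusted p under 0.05), where 36.4% of all tested genes were called higher and 8.94% lower. With class sums in place of members, 36.3% of features were called higher and 8.98% lower.

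Against embryo, teratoma means were lower by 2.34 times for H1, 2.10 for H2A, 1.94 for H2B, 2.28 for H3 and 1.85 for H4. Log2 changes were -1.22 ± 0.22, -1.07 ± 0.31, -0.97 ± 0.25, -1.23 ± 0.35 and -0.83 ± 0.24 in the order H1, H2A, H2B, H3, H4, with limma adjusted p of 0.00184, 0.0239, 0.0146, 0.0228 and 0.0219. With class sums in place of members, 10.6% of features were called lower. Of single members 13 of 55 were called lower and 0 higher by limma (0 at an unadjusted p under 0.05), where 10.6% of all tested genes were called lower and 15.5% higher. With a pseudocount of 0.1 in place of 1, 2 members were called lower. The H1 genes Hist1h1a to Hist1h1e were 5 of these 13, and the calls of Hist1h1c and Hist1h1e (-1.13 and -0.91, limma adjusted p = 0.00178 and 0.0111) held in every alternative run. The class call of H2A and that of H4 each ended without teratoma replicate 1 or 2 or embryo replicate 1 or 3 (limma adjusted p 0.0556 to 0.0884 for H2A and 0.0543 to 0.0747 for H4). The call of H2B ended without teratoma replicate 2 (limma adjusted p = 0.0599), and that of H3 without teratoma replicate 1 or embryo replicate 1 (0.0872 and 0.0593). Fitted on teratoma and embryo libraries alone, H4 was not called (limma adjusted p = 0.0726), nor was H2A without its most abundant member (0.108). Without teratoma replicate 1, teratoma replicate 2 or embryo replicate 1 the count of lower members was 8, 7 and 7.

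Against embryo, transplant means were lower by 14.3 times for H1, 12.2 for H2A, 12.9 for H2B, 20.4 for H3 and 6.15 for H4 (limma adjusted p at most 5.54e-06). There 50 of 55 members were called lower and 0 higher by limma (0 at an unadjusted p under 0.05), beside 27.6% of all tested genes called lower and 14.9% higher. Adult means were lower than embryo means by 48.9 times for H1, 58.2 for H2A, 30.7 for H2B, 77.2 for H3 and 13.3 for H4 (limma adjusted p at most 1.95e-07). There 54 of 55 members were called lower and 0 higher by limma (0 at an unadjusted p under 0.05), beside 36.9% of all tested genes called lower and 15.8% higher. The one member not called was Hist2h3c1, listed at 3.61, 1.85 and 0 FPKM in adult and 1.60, 0 and 0 FPKM in embryo libraries. With class sums in place of members, 27.4% and 36.7% of features were called lower in these 2 comparisons. On the log2(FPKM + 1) scale H4 had the smallest change of the 5 classes in all 6 comparisons; the differences between classes were not tested.

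**Figure D2:**
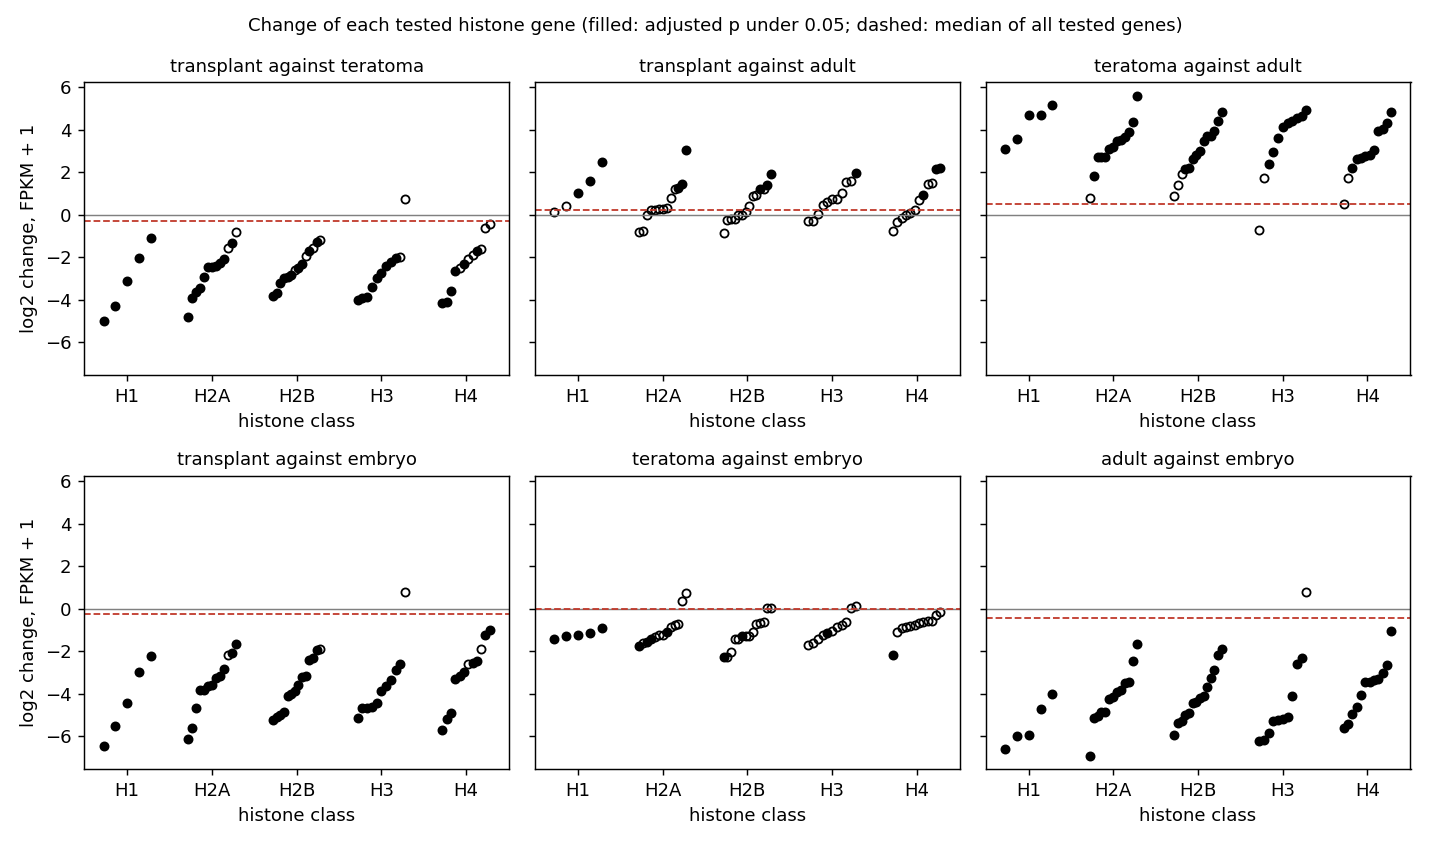
Log2 change (FPKM + 1) of each of the 55 tested members, by histone class, in the 6 comparisons; filled points passed an adjusted p of 0.05, and the dashed line is the median of all tested genes. Filled points lie on 1 side of 0 in each panel, 41 of them in transplant against teratoma and 13 in transplant against adult.

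The tested linker histones, of the class with the least shared sequence, kept the same order of group means but differed in size of change. Hist1h1a was 0.659, 0.330 and 4.79 FPKM in transplant, 93.4, 68.8 and 64.6 FPKM in teratoma, 0.647, 1.39 and 1.37 FPKM in adult, and 226, 258 and 141 FPKM in embryo libraries. Hist1h1b was 2.53, 2.53 and 10.8 FPKM in transplant, 114, 81.8 and 112 FPKM in teratoma, 4.70, 2.62 and 1.93 FPKM in adult, and 271, 254 and 206 FPKM in embryo libraries. For both genes transplant and adult libraries overlapped. Transplant against teratoma, Hist1h1a changed by -5.02 and Hist1h1b by -4.28 on the log2 scale (limma adjusted p = 3.19e-05 and 4.48e-05). Transplant against adult they changed by 0.15 and 0.43 (limma adjusted p = 0.820 and 0.420).

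Hist1h1c behaved otherwise. It was 28.7, 26.5 and 33.8 FPKM in transplant, 68.6, 52.7 and 73.3 FPKM in teratoma, 5.28, 5.0 and 3.41 FPKM in adult, and 136, 178 and 118 FPKM in embryo libraries. The 4 groups did not overlap. It fell by 1.10 on the log2 scale in transplant against teratoma (limma adjusted p = 0.00283) and rose by 2.47 in transplant against adult (limma adjusted p = 6.1e-06), calls that held in every alternative run. Hist1h1d was 2.51, 2.49 and 3.52 FPKM in transplant, 31.3, 29.7 and 36.3 FPKM in teratoma, 0.332, 0.566 and 0 FPKM in adult, and 75.1, 95.1 and 72.9 FPKM in embryo libraries. Hist1h1e was 15.4, 12.1 and 24.1 FPKM in transplant, 77.9, 63.9 and 74.0 FPKM in teratoma, 7.14, 9.06 and 6.61 FPKM in adult, and 121, 160 and 129 FPKM in embryo libraries. Both rose in transplant against adult, by 1.58 and 1.04 (limma adjusted p = 0.000118 and 0.00296).

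As shares of the H1 sum, Hist1h1c made up 57.7%, 60.3% and 43.9% in transplant, 17.8%, 17.7% and 20.3% in teratoma, 29.2%, 26.8% and 25.6% in adult, and 16.4%, 18.8% and 17.6% in embryo libraries. Its share in transplant lay above that in every other library. Hist1h1a made up 1.32%, 0.752% and 6.22% in transplant, 24.2%, 23.2% and 17.9% in teratoma, 3.58%, 7.48% and 10.3% in adult, and 27.2%, 27.3% and 21.1% in embryo libraries. The shares in teratoma and embryo libraries overlapped for both genes. In the adult group Hist1h1e had the highest share, at 39.5%, 48.6% and 49.6%, against 14.55%, 17.0% and 19.3% in the embryo group. Hist1h1t, the testis-type linker histone, was listed at 0 in transplant and adult libraries and at no more than 2.25 FPKM elsewhere.

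**Figure D3:**
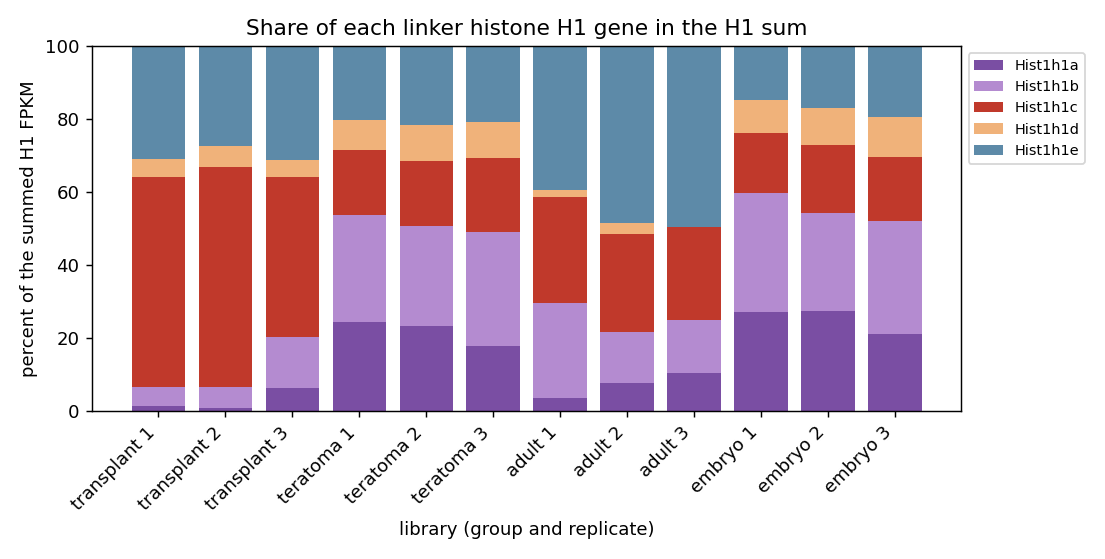
Percent of the summed H1 FPKM contributed by each of 5 linker histone genes in every library. Hist1h1c takes 43.9% to 60.3% in the transplant libraries, and Hist1h1a with Hist1h1b form the larger part in most teratoma and embryo libraries.

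Among H2A genes, which encode the partner of H2B in the nucleosome, the changes of Hist1h2ak and Hist2h2ac differed in size. Hist1h2ak was 1.65, 9.68 and 6.78 FPKM in transplant, 200, 118 and 200 FPKM in teratoma, 2.28, 0.737 and 6.23 FPKM in adult, and 518, 375 and 379 FPKM in embryo libraries. Hist2h2ac was 44.8, 65.4 and 72.2 FPKM in transplant, 133, 127 and 207 FPKM in teratoma, 4.34, 10.7 and 5.46 FPKM in adult, and 246, 245 and 288 FPKM in embryo libraries. Transplant libraries overlapped adult libraries for Hist1h2ak and not for Hist2h2ac. In transplant against teratoma Hist1h2ak fell by 4.80 and Hist2h2ac fell by 1.33 on the log2 scale (limma adjusted p = 0.000123 and 0.00669). In transplant against adult Hist1h2ak changed by 0.81 (limma adjusted p = 0.242, or 1.40 with 0.0392 without transplant replicate 1) and Hist2h2ac rose by 3.04 (limma adjusted p = 1.37e-05).

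Hist2h2ac was 76.0%, 74.6% and 75.3% of the H2A sum in transplant, 28.5%, 32.1% and 37.9% in teratoma, 43.5%, 38.4% and 41.8% in adult, and 22.5%, 29.5% and 27.8% in embryo libraries. The rise of the H2A class in transplant against adult was called with all members but not with the Hist1 cluster alone. Summed over that cluster, H2A changed by 0.73 (limma adjusted p = 0.148). The difference between these changes was not tested. Over all alternatives, the limma adjusted p of the H2A class in this comparison ran from 2.94e-05 to 0.148. Outside the Hist1 cluster Hist2h2ac was the most abundant H2A member. Of the remaining H2A members, Hist1h2af was the third by mean level, at 6.85, 1.65 and 10.5 FPKM in transplant, 30.4, 54.1 and 20.8 FPKM in teratoma, 0.771, 9.78 and 0 FPKM in adult, and 69.0, 58.7 and 114 FPKM in embryo libraries. Hist1h2ab was listed at 0 in all 3 transplant libraries, against 11.1, 25.7 and 9.24 FPKM in teratoma, 0.585, 2.24 and 0 FPKM in adult, and 50.5, 40.6 and 55.2 FPKM in embryo libraries.

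The H2B class was led by Hist2h2bb, whose sequence is shared with no other member. It was 29.5, 52.3 and 54.0 FPKM in transplant, 242, 215 and 309 FPKM in teratoma, 15.9, 29.3 and 12.9 FPKM in adult, and 480, 411 and 366 FPKM in embryo libraries. The groups did not overlap, and its share of the H2B sum stayed between 41.7% and 67.6% in the 12 libraries. It fell by 2.5 in transplant against teratoma and rose by 1.22 in transplant against adult on the log2 scale (limma adjusted p = 0.000194 and 0.00561). Hist1h2bb was 4.46, 10.6 and 10.2 FPKM in transplant, 58.7, 72.3 and 68.7 FPKM in teratoma, 0, 3.18 and 2.08 FPKM in adult, and 171, 155 and 113 FPKM in embryo libraries. It rose by 1.93 in transplant against adult (limma adjusted p = 0.00442). Hist1h2bg was 6.08, 4.98 and 8.38 FPKM in transplant, 36.2, 34.1 and 34.7 FPKM in teratoma, 0, 2.59 and 4.73 FPKM in adult, and 131, 54.3 and 89.9 FPKM in embryo libraries. The testis-type pair Hist1h2ba and Hist1h2aa was listed at 0 in every transplant library. Hist1h2ba reached 5.33 FPKM in teratoma replicate 3 and 14.8 FPKM in embryo replicate 3, and Hist1h2aa was above 0 in 1 library, at 0.800 FPKM in teratoma replicate 1.

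Many H2A and H2B genes lie head to head and share the DNA between their starts. Of neighbouring members, 12 H2A and H2B pairs had opposite strands and starts 173 to 306 bases apart. RefSeq promoter windows (GRCm38.p6), from 250 bases before to 50 after the start, were available for 60 members. The octamer ATTTGCAT, sought on both strands, occurred in 7 of 17 H2A and 7 of 15 H2B windows and in 0 of 6 H1, 0 of 10 H3 and 0 of 12 H4 windows, against 1.97% of 27025 genes. Windows of divergent genes overlap, so 1 site can be counted for both. CCAAT, on either strand, occurred in every H1, H2A, H2B and H3 window, in 3 of 12 H4 windows and in 41.1% of all genes. TATAAA, on either strand, occurred in 35 of the 60 windows, against 15.7% of all genes. A match describes letters, not a bound site.

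The windows of the most abundant H2B gene and of the most abundant H2A gene in transplant cells are shown with octamer, CCAAT and TATAAA matches of either strand in capitals, each written 5′ to 3′ on its gene's strand.
Hist2h2bb (chr3:96269450-96269749, plus strand): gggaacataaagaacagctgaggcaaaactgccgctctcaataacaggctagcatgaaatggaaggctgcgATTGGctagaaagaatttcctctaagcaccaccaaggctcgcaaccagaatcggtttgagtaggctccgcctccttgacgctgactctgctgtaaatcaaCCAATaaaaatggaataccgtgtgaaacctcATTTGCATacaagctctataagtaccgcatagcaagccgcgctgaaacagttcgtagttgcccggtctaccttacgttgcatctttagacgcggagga
Hist2h2ac (chr3:96220831-96221130, minus strand): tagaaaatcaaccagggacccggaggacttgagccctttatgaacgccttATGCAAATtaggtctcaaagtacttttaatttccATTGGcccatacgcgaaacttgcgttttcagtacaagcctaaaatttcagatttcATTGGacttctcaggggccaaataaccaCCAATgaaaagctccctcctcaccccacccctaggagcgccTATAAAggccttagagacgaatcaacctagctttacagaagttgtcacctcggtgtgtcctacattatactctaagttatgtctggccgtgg
Hist2h2bb holds an octamer and no TATAAA, and Hist2h2ac an octamer, 3 CCAAT matches and a TATAAA.

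Some head-to-head neighbours differed widely in FPKM. Of the 50-base stretches of Hist1h2ak 52.3% occur in another member, and of those of Hist1h2bn 86.4%, so their split of reads is uncertain. For Hist1h2ae and Hist1h2bg these shares are 43.2% and 49.7%. The GENCODE model of Hist2h2be is 2620 bases long and that of Hist2h2ac 520, and FPKM is scaled to gene length. The part of shared reads and model length in these differences was not tested. Hist2h2ac starts 239 bases from Hist2h2be on the other strand. Hist2h2ac averaged 60.8 FPKM in transplant, 156 FPKM in teratoma, 6.83 FPKM in adult and 260 FPKM in embryo libraries, and Hist2h2be averaged 0.381, 0.129, 0.374 and 0.865 FPKM in the same groups. Hist1h2ak, 296 bases from Hist1h2bn, averaged 6.04, 173, 3.08 and 424 FPKM in transplant, teratoma, adult and embryo libraries, and Hist1h2bn 0, 6.91, 0 and 16.9 FPKM. In Hist1h2ae and Hist1h2bg the H2B gene was the higher, at 6.48 FPKM in transplant, 35.0 FPKM in teratoma, 2.44 FPKM in adult and 91.8 FPKM in embryo libraries, beside 0.203, 5.70, 0 and 14.0 FPKM for the H2A gene. Both genes of these last 2 pairs were higher in teratoma than in adult means, and higher again in embryo means.

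H3 genes encode the histone whose tail carries many regulatory marks. Single H3 members were low and near zero in adult cells. Hist1h3g was 3.57, 0 and 0.919 FPKM in transplant, 31.0, 44.3 and 19.3 FPKM in teratoma, 0 in every adult library, and 97.2, 51.4 and 75.9 FPKM in embryo libraries. Hist1h3d was 1.88, 4.68 and 5.93 FPKM in transplant, 10.4, 40.8 and 34.8 FPKM in teratoma, 0, 0 and 0.800 FPKM in adult, and 58.9, 110 and 49.9 FPKM in embryo libraries. Hist1h3d was the 1 H3 member called in transplant against adult, with a rise of 1.99 on the log2 scale (limma adjusted p = 0.00696). Hist1h3b was 0, 1.87 and 7.90 FPKM in transplant, 7.57, 47.5 and 29.6 FPKM in teratoma, 0 in every adult library, and 58.8, 147 and 47.7 FPKM in embryo libraries. Its transplant and teratoma libraries overlapped, and its call there (-2.99, limma adjusted p = 0.0149) ended without transplant replicate 1 or teratoma replicate 2 (adjusted p 0.0596 and 0.0593; range over all alternatives 0.00422 to 0.0596). Hist1h3i had the largest called fall of the class in transplant against teratoma (-4.01, limma adjusted p = 0.000392), at 2.65, 0 and 0 FPKM in transplant and 25.8, 14.0 and 36.9 FPKM in teratoma libraries.

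H4 genes encode the partner of H3 and held the largest share of all histone message in adult and transplant cells. In teratoma the H4 mean was also the highest of any class, at 506 FPKM beside 496 FPKM for H2B. H4 was 42.8%, 44.2% and 31.2% of the sum of all 67 members in transplant, 24.8%, 26.1% and 23.6% in teratoma, 47.6%, 42.1% and 60.5% in adult, and 26.1%, 16.3% and 23.1% in embryo libraries. Transplant and adult libraries lay above teratoma and embryo libraries. Hist1h4d was 41.0, 48.4 and 46.9 FPKM in transplant, 144, 160 and 143 FPKM in teratoma, 13.2, 35.1 and 27.5 FPKM in adult, and 336, 182 and 316 FPKM in embryo libraries. Hist2h4 was 29.3, 61.1 and 46.0 FPKM in transplant, 53.0, 59.7 and 94.9 FPKM in teratoma, 8.19, 4.25 and 17.8 FPKM in adult, and 121, 75.1 and 124 FPKM in embryo libraries. For Hist2h4 transplant and teratoma libraries overlapped and the change of -0.61 was not called (limma adjusted p = 0.329), while transplant rose over adult by 2.2 (limma adjusted p = 0.00129).

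Hist4h4, the lone gene on chromosome 6, was 9.78, 9.82 and 8.92 FPKM in transplant, 10.6, 14.1 and 15.04 FPKM in teratoma, 9.27, 8.41 and 9.41 FPKM in adult, and 18.8, 31.0 and 13.4 FPKM in embryo libraries. Transplant and adult libraries overlapped, as did teratoma and embryo libraries. Hist4h4 fell by 0.99 in transplant and by 1.06 in adult against embryo on the log2 scale (limma adjusted p = 0.00737 and 0.00364), and its other 4 changes were not called. Its changes under the alternatives are not given here. Hist1h4b was listed at 0 in all 3 transplant libraries, against 29.8, 5.64 and 7.08 FPKM in teratoma, 0, 4.01 and 0 FPKM in adult, and 55.7, 37.8 and 65.8 FPKM in embryo libraries. Hist1h4a was 26.2, 23.2 and 12.1 FPKM in transplant, 63.3, 67.7 and 96.5 FPKM in teratoma, 17.5, 0 and 4.14 FPKM in adult, and 174, 95.4 and 82.6 FPKM in embryo libraries.

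By cluster, the Hist2 genes made up 32.7%, 43.5% and 42.4% of the histone sum in transplant, 23.7%, 22.5% and 26.7% in teratoma, 27.1%, 28.7% and 26.8% in adult, and 18.6%, 21.1% and 20.8% in embryo libraries. The transplant libraries lay above all others. The Hist1 genes made up 52.0% to 63.1% in transplant, 70.8% to 75.8% in teratoma, 64.9% to 65.8% in adult, and 77.0% to 80.1% in embryo libraries. By detection, 24 members were above 0 in all 3 transplant libraries, 50 in teratoma, 15 in adult and 52 in embryo. At 0 in all 3 libraries were 21 members in transplant, 4 in teratoma, 26 in adult and 5 in embryo.

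**Figure D4:**
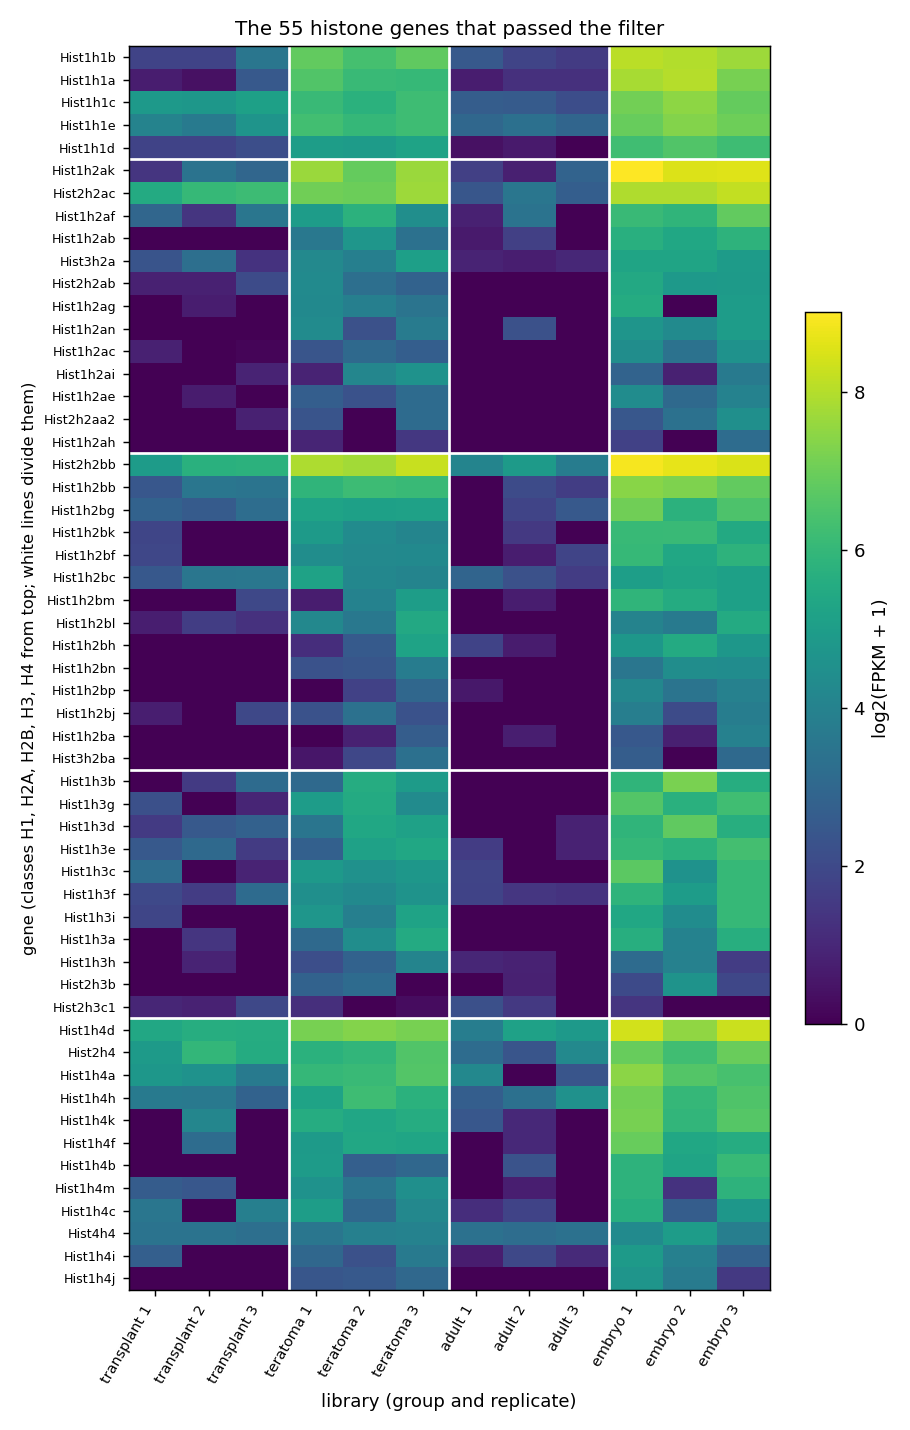
Log2(FPKM + 1) of the 55 members that passed the filter, by class (rows, most abundant first in each class) and library (columns). Hist1h1c, Hist2h2ac, Hist2h2bb, Hist1h4d and Hist2h4 stand out among transplant libraries, where many other members are near 0.

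A set of 6 members, Hist1h2ac, Hist1h2bc, Hist1h2bj, Hist1h2bk, Hist2h2be and Hist1h1c, bear the symbols of human genes reported to give polyadenylated message in differentiated cells. Their sum was 38.6, 37.1 and 47.7 FPKM in transplant, 141, 106 and 114 FPKM in teratoma, 12.8, 10.7 and 5.42 FPKM in adult, and 271, 295 and 233 FPKM in embryo libraries. As a share of the histone sum it was 11.9%, 8.93% and 11.1% in transplant, 7.32%, 5.68% and 4.88% in teratoma, 10.1%, 6.54% and 3.98% in adult, and 5.61%, 7.77% and 5.80% in embryo libraries. Of the mean of this sum, Hist1h1c made up 29.6 of 41.1 FPKM in transplant and 64.9 of 121 FPKM in teratoma libraries. In adult it made up 4.56 of 9.64 FPKM, and in embryo libraries 144 of 266 FPKM. Hist1h2bc was 4.66, 10.6 and 10.97 FPKM in transplant, 35.5, 16.8 and 15.7 FPKM in teratoma, 6.48, 3.77 and 2.01 FPKM in adult, and 32.5, 37.1 and 34.3 FPKM in embryo libraries. Hist1h2ac and Hist1h2bj were listed at 0 in every adult library and reached at most 0.771 and 2.90 FPKM in transplant, 7.44 and 9.24 FPKM in teratoma, and 23.4 and 13.4 FPKM in embryo libraries. Hist1h2bk was 2.72, 0 and 0 FPKM in transplant, 28.8, 19.6 and 16.2 FPKM in teratoma, 0, 1.84 and 0 FPKM in adult, and 66.7, 67.4 and 43.9 FPKM in embryo libraries.

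The 12 members left out of the single-gene tests were low throughout. Hist1h2be and Hist1h4n were listed at 0 in every library, and Hist2h3c2 reached the highest value of the 12, at 8.65 FPKM in embryo replicate 2. Hist1h2ag, Hist1h4c, Hist2h3b and Hist3h2ba, which were tested, each had a lone 0 beside values of at least 5 FPKM in the other libraries of a group. Hist1h2ag was listed at 45.7, 0 and 30.3 FPKM in embryo libraries. An exact 0 in such a table can be a failed estimate. Among members with a group mean of at least 5 FPKM the median coefficient of variation was 36.3% in transplant, 34.6% in teratoma, 47.4% in adult and 35.7% in embryo libraries, and for class sums it was 24.0%, 16.1%, 33.4% and 14.0% in the same groups.

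The H3 replacement variants H3f3a and H3f3b, which take up positions in chromatin outside replication, varied far less than the clustered H3 genes. H3f3a and H3f3b together were 264, 346 and 322 FPKM in transplant, 547, 568 and 487 FPKM in teratoma, 511, 523 and 477 FPKM in adult, and 461, 724 and 666 FPKM in embryo libraries. The ratio of the H3 sum to this pair was 0.0946, 0.0563 and 0.0975 in transplant, 0.272, 0.452 and 0.559 in teratoma, 0.0229, 0.00989 and 0.00654 in adult, and 1.18, 0.691 and 0.751 in embryo libraries. The 4 groups did not overlap. In teratoma against adult H3f3a changed by 0.04 (limma adjusted p = 0.880), and by -0.49 with median-ratio scaling (limma adjusted p = 0.0302), while H3f3b changed by 0.11 as deposited (limma adjusted p = 0.697).

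H1f0, the linker variant of resting and differentiated cells, was 22.0, 17.2 and 17.3 FPKM in transplant, 14.3, 20.9 and 24.2 FPKM in teratoma, 3.09, 1.77 and 1.25 FPKM in adult, and 31.9, 22.7 and 35.5 FPKM in embryo libraries. It was called in transplant against adult with a rise of 2.74, and in transplant against teratoma changed by -0.05 (limma adjusted p = 1.54e-05 and 0.919). The ratio of the H1 sum to H1f0 plus H1fx was 1.84, 2.09 and 3.30 in transplant, 12.6, 6.93 and 6.46 in teratoma, 4.12, 3.77 and 3.08 in adult, and 12.7, 13.8 and 8.06 in embryo libraries. Transplant and adult libraries overlapped in this ratio, although the H1 sum itself was higher in transplant.

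The ratio of the H2A sum to 6 H2A variants (H2afx, H2afz, H2afv, H2afy, H2afy2 and H2afj) was 0.702, 0.947 and 0.825 in transplant, 1.70, 1.59 and 2.23 in teratoma, 0.117, 0.264 and 0.126 in adult, and 2.44, 1.53 and 1.99 in embryo libraries. H2afj was 16.4, 14.3 and 28.2 FPKM in transplant, 13.0, 24.7 and 19.3 FPKM in teratoma, 7.80, 8.60 and 6.17 FPKM in adult, and 5.87, 9.68 and 7.24 FPKM in embryo libraries. It was the 1 variant called higher in transplant and in teratoma than in embryo, by 1.23 and 1.20 on the log2 scale (limma adjusted p = 0.0048 and 0.0098). H2afx, the variant marked at DNA breaks, was 9.31, 13.2 and 18.6 FPKM in transplant, 71.1, 63.6 and 68.0 FPKM in teratoma, 16.0023, 30.0 and 18.3 FPKM in adult, and 182, 232 and 207 FPKM in embryo libraries. Of the 11 replacement variants, 9 were lower and 0 higher in transplant against teratoma (5 lower with median-ratio scaling). Of all tested genes 18.5% were called lower there as deposited, and 1209 of 12699 with median-ratio scaling. In transplant against adult 4 variants were higher and 2 lower (2 higher and 4 lower with that scaling). The counts as deposited are near the 27.3% of all tested genes called higher and 16.9% called lower. With median-ratio scaling 3047 of 12699 tested genes were called higher and 2831 lower in that comparison.

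Slbp and Npat did not follow the order of the histone classes. Slbp was 10.5, 11.5 and 12.1 FPKM in transplant, 36.3, 27.5 and 22.7 FPKM in teratoma, 28.1, 23.7 and 27.6 FPKM in adult, and 40.5, 56.6 and 58.6 FPKM in embryo libraries. Transplant libraries lay below all others. Slbp fell by 1.15 on the log2 scale in transplant against adult (limma adjusted p = 0.000592), where every histone class rose. In teratoma against adult it changed by 0.10 (limma adjusted p = 0.704), and by -0.42 with median-ratio scaling (limma adjusted p = 0.0478). Npat was 1.96, 2.09 and 1.54 FPKM in transplant, 6.04, 5.57 and 5.58 FPKM in teratoma, 5.33, 3.82 and 4.67 FPKM in adult, and 7.53, 13.6 and 10.7 FPKM in embryo libraries. Npat fell by 0.97 in transplant against adult (limma adjusted p = 0.005).

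Cyclin E, with its kinase, activates Npat. Ccne1 was 6.07, 2.94 and 4.25 FPKM in transplant, 25.7, 22.4 and 19.0 FPKM in teratoma, 0.188, 0.975 and 0.510 FPKM in adult, and 71.6, 110 and 45.5 FPKM in embryo libraries, the same order as the histone classes. Ccne2 was listed at 0 in all transplant and adult libraries and was 6.69, 1.97 and 3.95 FPKM in teratoma and 9.59, 9.69 and 9.50 FPKM in embryo libraries. Of 27 tested regulators of histone message, 6 were higher and 10 lower in transplant against adult. In teratoma against adult 11 were higher and 1 lower, where median-ratio scaling gave 6 higher and 6 lower. Of 24 tested histone chaperones, 2 were higher and 6 lower in transplant against adult, or 0 higher and 8 lower with that scaling. Of all tested genes, 27.3% were called higher and 16.9% lower in transplant against adult. The shares in teratoma against adult were 36.4% and 8.94%. As deposited, the number of regulators called higher was near those shares in both comparisons. With median-ratio scaling, 3047 of 12699 tested genes were higher and 2831 lower in transplant against adult. In teratoma against adult that scaling gave 2929 higher and 2586 lower. Nasp, which carries H1 and H3 with H4, was 5.95, 7.70 and 8.18 FPKM in transplant, 38.9, 23.3 and 25.0 FPKM in teratoma, 31.8, 27.3 and 28.2 FPKM in adult, and 53.8, 68.0 and 64.2 FPKM in embryo libraries. Nasp fell by 1.87 in transplant against adult (limma adjusted p = 2.87e-05).

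The sum of all members relative to S phase genes was lower in adult cells than in the other groups. The sum of 34 S phase genes (the list of 35 without Slbp) was 79.8, 92.5 and 116 FPKM in transplant, 462, 327 and 366 FPKM in teratoma, 159, 163 and 153 FPKM in adult, and 885, 998 and 923 FPKM in embryo libraries. The histone sum over it was 4.09, 4.49 and 3.69 in transplant, 4.18, 5.69 and 6.40 in teratoma, 0.796, 1.01 and 0.887 in adult, and 5.46, 3.81 and 4.35 in embryo libraries. Adult libraries lay below the 9 others, which overlapped among groups. Pcna, the sliding clamp of DNA replication, supplied much of the adult sum, at 26.5, 31.8 and 35.0 FPKM in transplant and 96.2, 98.4 and 108 FPKM in adult libraries. Without Pcna the ratio was 6.12, 6.84 and 5.27 in transplant, 5.57, 7.50 and 7.61 in teratoma, 2.02, 2.54 and 2.97 in adult, and 6.67, 4.89 and 5.53 in embryo libraries, still lowest in adult; leaving it out was chosen after its values were seen. For the H4 sum alone the ratio without Pcna was 2.62, 3.02 and 1.65 in transplant, 1.38, 1.96 and 1.79 in teratoma, 0.962, 1.07 and 1.799 in adult, and 1.74, 0.797 and 1.28 in embryo libraries. Each group overlapped every other in the H4 ratio. For H1 the ratio without Pcna was 0.934, 0.723 and 0.946 in transplant, below 1.11, 1.20 and 1.17 in teratoma libraries. For H3 it was 0.470, 0.321 and 0.385 in transplant, below 0.753, 0.643 and 0.690 in embryo libraries. The remaining pairs among transplant, teratoma and embryo groups overlapped in the H1, H2A, H2B and H3 ratios.

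In transplant against adult 4 of 35 S phase genes were called higher and 3 lower, and 2 of 23 genes of G2 and M phase higher and 1 lower, beside 27.3% of all tested genes called higher and 16.9% lower. Quantile normalization gave 1 S phase gene higher and 6 lower, and leaving out small and ribosomal RNA gave 7 higher and 3 lower. Under median-ratio scaling, quantile normalization and that setting, 0 to 4 genes of G2 and M phase were higher and 0 to 1 lower. In transplant against teratoma 31 of 35 and 23 of 23 were lower, beside 18.5% of all tested genes. Under median-ratio scaling 21 of the 35 were lower there, beside 1209 of 12699 tested genes. In teratoma against embryo 25 of 35 and 22 of 23 were lower, beside 10.6% of all tested genes. The histone sum per Slbp was 30.9, 36.2 and 35.5 in transplant, 53.2, 67.7 and 103 in teratoma, 4.49, 6.92 and 4.93 in adult, and 119, 67.2 and 68.5 in embryo libraries. Teratoma and embryo libraries overlapped in this ratio, and the adult libraries lay below all others.

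**Figure D5:**
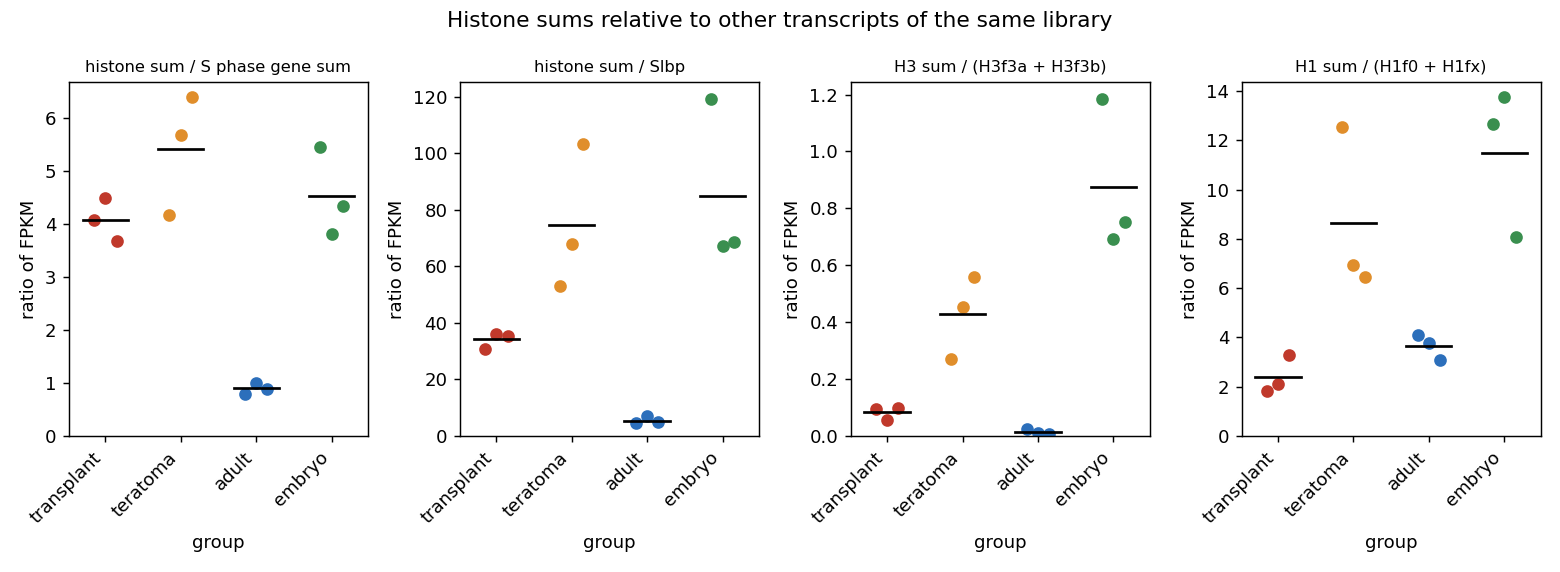
Ratios of FPKM within each library: the histone sum over 34 S phase genes, the histone sum over Slbp, the H3 sum over H3f3a plus H3f3b, and the H1 sum over H1f0 plus H1fx; points are libraries (n = 3 per group) and bars are means. Adult libraries are lowest in the first 3 panels (0.796 to 1.01 in the first), and transplant libraries overlap adult libraries in the last.

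Markers of other cell types moved with the groups. The 7 fibroblast markers summed to 5244 to 8188 FPKM in transplant, 2867 to 4735 FPKM in teratoma, 1115 to 1675 FPKM in adult and 2305 to 3353 FPKM in embryo libraries. The 7 epithelial markers summed to 0.0963 to 0.435 FPKM in transplant, 181 to 469 FPKM in teratoma, 0.634 to 1.99 FPKM in adult and 4.02 to 19.2 FPKM in embryo libraries, with Epcam at 0 in all transplant libraries. The 11 erythroid markers in the table summed to 3.91 to 5.53 FPKM in transplant, 22.4 to 62.3 FPKM in teratoma, 23.4 to 43.9 FPKM in adult and 304 to 2001 FPKM in embryo libraries, with Gata1 at 0 in every embryo library. The 8 leukocyte markers summed to 22.1 to 34.4 FPKM in transplant, 55.4 to 166 FPKM in teratoma, 9.01 to 20.3 FPKM in adult and 3.02 to 29.1 FPKM in embryo libraries. The 7 endothelial markers summed to 6.47 to 9.69 FPKM in transplant and 42.4 to 54.2 FPKM in teratoma libraries. In adult and embryo libraries they summed to 16.4 to 27.2 and 18.0 to 42.0 FPKM. The 6 neural markers in the table summed to 9.29 to 12.3 FPKM in transplant and 18.7 to 26.5 FPKM in teratoma libraries. In adult and embryo libraries they summed to 4.96 to 10.1 and 23.5 to 31.7 FPKM. The part of these cells in the histone differences was not tested.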

How the data were processed

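Library construction used the Pico version of the SMARTer stranded total-RNA kit, per the labels' protocols. The authors deposited FPKM for 12 libraries in 1 table, as its header names them. Among tools the submitters' processing notes list Cufflinks 2.2.1.0, TopHat 0.7, Partek and CASAVA 1.8.2, with the build mm10 and no roles; the annotation, how strand was used and the depth were not given in the sources used here. Without depth, no counting intervals or detection floors are given. The 12 value columns were matched to libraries by the sample description.

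Of the 23746 rows, repeated symbols (240) were summed. The 12699 symbols that reached 1 FPKM in 3 or more libraries were tested with limma 3.58.1 in R 4.3.3 on log2(FPKM + 1), in 1 model of 4 groups with an intensity trend, two-sided, with Benjamini-Hochberg adjustment over all tested features and a threshold of 0.05. Fold changes on this scale understate the change of low genes. Class sums were tested in the same table with the members' rows replaced by 5 sums (12649 features). Changes are those of the group named before "against" relative to the group after it. The steps were tested on simulated data. Descriptive values, sequences and figures were made with Python 3.11.15; transcripts came from GENCODE M21 and promoter windows from RefSeq GRCm38.p6.

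Members and gene lists were chosen with earlier results of these data known. Genes are named from a rule: the 3 most abundant of each class, every H1 gene, testis-type and polyadenylated-type members, the largest called change per class and comparison with a mean of at least 5 FPKM, the 11 replacement variants, Slbp, Npat, and the called regulators and chaperones with the largest changes; not every gene that meets it is printed. Hist4h4, Pcna, Hist2h3c1, Hist2h3c2, the members with a lone 0, the divergent pairs and the full list of members called in transplant against adult were named after their values were seen. Replicate numbers were checked for pairing, and correlations of same-numbered libraries' deviations ran from -0.0951 to 0.0956 in 18 pairs. The main tests therefore used no pairing. Such weak correlations cannot exclude that same-numbered libraries shared animals or a batch. Comparisons share libraries, so their values are set side by side. Alternatives were another pseudocount (0.1), filter, scaling, normalization, weights, a replicate block, sums without chosen members, and leaving out each library.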

Additional observations from a re-analysis of the deposited data

How the results depend on the processing

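Of 390 values of the class sums under alternatives that keep all libraries, 387 kept their direction and their side of the threshold, as did 169 of 180 with 1 library left out; none changed direction. The exceptions outside leaving out a library were H4 in teratoma against embryo fitted on those groups alone (-0.83, limma adjusted p = 0.0726), H2A in teratoma against embryo without its most abundant member (-0.91, adjusted p = 0.108), and H2A in transplant against adult over Hist1 genes (0.73, adjusted p = 0.148); the sums without a member rest on fewer genes, and for the others the cause was not tested. With 1 library left out, teratoma against embryo ran from -1.19 to -0.95 for H2A, from -1.13 to -0.87 for H2B, from -1.39 to -0.96 for H3 and from -1.10 to -0.59 for H4. Members called lower in teratoma against embryo numbered 2 with a pseudocount of 0.1 and 7 to 14 with 1 library left out, against 13. Members called lower in transplant against adult numbered 1 with a pseudocount of 0.1 and 0 to 1 with 1 library left out, against 0, and members called higher in adult against embryo 0 to 1, against 0. Median-ratio scaling turned the uncalled changes of H3f3a (-0.49) and Slbp (-0.42) in teratoma against adult. With the replicate number as a block, counts of called members were 38, 14, 47, 50, 11 and 54 in the order transplant against teratoma, transplant against adult, teratoma against adult, transplant against embryo, teratoma against embryo and adult against embryo, and all 30 class sums kept their call. Without depths, values near 0 FPKM cannot be told from absence.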
